A study of Mus musculus with 2 samples.

Results

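The genes described here are 10 genes of the mGluR6 signalling cascade of retinal ON bipolar cells, chosen by symbol: Grm6, Trpm1, Nyx, Gpr179, Lrit3, Gnao1, Rgs7, Rgs11, Pcp2 and Prkca. All 10 were found among the 23356 gene symbols of the deposited table, each at 1 locus, and all 10 were measured. RNA came from retinas dissected at postnatal day 15, with 1 triple mutant library and 1 control library. The triple mutant carried loxP-flanked alleles of Dnmt1, Dnmt3a and Dnmt3b on both chromosomes and the Rx-Cre transgene, in which regulatory sequence of the retinal gene Rx drives Cre recombinase. The control carried the same flanked alleles without Rx-Cre. The strain is labelled C57BL/7 for the triple mutant and C57BL/6 for the control, and the labels say neither how many animals a library holds nor which exons the loxP sites flank. With 1 library of each genotype there was no replicate check and no test between genotypes, so the differences given set 1 library against another.

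ON bipolar cells receive glutamate from photoreceptors through the metabotropic receptor mGluR6. In darkness glutamate keeps the receptor active, its G protein Go holds the cation channel TRPM1 shut, and light, by lowering glutamate, lets the channel open. Regulators of G protein signalling shorten the life of active Go, and leucine-rich repeat proteins hold receptor and channel together at the dendritic tip. Loss of several of these proteins causes congenital stationary night blindness.

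The 5 promoter windows below were picked to show the receptor, the channel, the pair of members with the ratios farthest from 0 and 1 CpG-rich member, because the enzymes targeted in the mutant methylate cytosine in CpG dinucleotides. Each runs 5′ to 3′ from 250 bases before to 50 bases after a start site in RefSeq (GRCm38.p6), and capitals mark CpG dinucleotides. DNA methylation was not measured in these libraries.

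Grm6, chr11:50850435-50850734, plus strand: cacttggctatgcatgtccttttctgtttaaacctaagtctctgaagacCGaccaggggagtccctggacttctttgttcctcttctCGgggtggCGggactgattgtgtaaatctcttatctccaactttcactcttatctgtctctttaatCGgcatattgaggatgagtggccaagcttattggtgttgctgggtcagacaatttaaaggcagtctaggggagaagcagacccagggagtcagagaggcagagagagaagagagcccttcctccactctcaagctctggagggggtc
Trpm1, chr7:64153585-64153884, plus strand: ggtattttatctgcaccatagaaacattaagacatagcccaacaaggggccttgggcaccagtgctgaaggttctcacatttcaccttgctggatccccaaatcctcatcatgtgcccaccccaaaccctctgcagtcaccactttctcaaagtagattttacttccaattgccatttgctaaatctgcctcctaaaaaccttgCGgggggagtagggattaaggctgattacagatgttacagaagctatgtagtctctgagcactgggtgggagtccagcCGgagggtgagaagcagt
Lrit3, chr3:129804087-129804386, minus strand: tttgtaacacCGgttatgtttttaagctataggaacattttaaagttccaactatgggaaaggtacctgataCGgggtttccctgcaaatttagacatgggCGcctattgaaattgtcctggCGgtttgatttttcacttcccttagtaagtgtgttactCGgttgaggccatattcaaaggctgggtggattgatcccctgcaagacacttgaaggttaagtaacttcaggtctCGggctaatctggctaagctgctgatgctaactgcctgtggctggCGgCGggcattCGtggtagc
Pcp2, chr8:3625498-3625797, minus strand: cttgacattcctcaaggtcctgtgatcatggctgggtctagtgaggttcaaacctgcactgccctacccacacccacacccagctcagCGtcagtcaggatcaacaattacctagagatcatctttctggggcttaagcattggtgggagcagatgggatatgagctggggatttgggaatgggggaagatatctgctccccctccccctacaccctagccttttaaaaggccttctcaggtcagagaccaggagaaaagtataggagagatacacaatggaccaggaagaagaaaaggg
Prkca, chr11:108343839-108344138, minus strand: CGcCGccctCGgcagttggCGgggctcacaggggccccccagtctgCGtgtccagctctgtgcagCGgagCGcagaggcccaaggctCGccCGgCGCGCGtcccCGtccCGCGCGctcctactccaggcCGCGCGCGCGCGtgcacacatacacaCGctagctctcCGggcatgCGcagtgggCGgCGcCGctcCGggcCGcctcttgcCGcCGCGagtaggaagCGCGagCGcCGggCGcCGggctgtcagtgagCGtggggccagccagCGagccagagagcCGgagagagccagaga

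RefSeq windows were matched for 9 of the 10 members. The CpG count split them widely. Prkca and Gnao1 held 42 CpG dinucleotides each and Rgs7 held 34, above the upper quartile of 20 over all 32851 windows. Lrit3 held 9, Grm6 4 and Nyx 3, within the quartiles of all windows (3 and 20). Trpm1 and Gpr179 held 2 and Pcp2 held 1, below the lower quartile. The Nyx window lies 5020 bases from the start of the GENCODE transcript paired with the RefSeq transcript in the deposited table, and those of Gpr179, Rgs7 and Lrit3 lie 340, 155 and 106 bases away, so these windows may not be the starts the libraries used. The homeodomain core TAATCC, of the kind bound by OTX2 and CRX, was found on either strand in 1 of the 9 windows, that of Trpm1, against 7.06% of all windows. The E-box CAGATG was found in the windows of Trpm1, Gpr179 and Pcp2, against 17.2% of all windows. Where a member has several windows, the one nearest the start of its main transcript was counted. The letters TAATTA (5.29% of all windows), CAGCTG (16.3%) and TATAAA (13.6%) were in 0 of the 9, and the window of the minor Pcp2 transcript NM_008790 held 1 TAATTA and 1 TATAAA. Both strands were searched, TAATCC and TAATTA share the letters TAAT, and CAGATG and CAGCTG are both E-boxes of the form CANNTG. A match describes the sequence only.

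Most of the cascade differed little between the libraries, and 2 members stood apart in opposite directions. Pcp2, which encodes a small modulator of Go, was 1.68-fold higher in the triple mutant library, and Lrit3, which encodes a leucine-rich repeat protein of the synapse, was at 60.4% of its control level. The G protein regulators Rgs7 and Rgs11 were at 79.5% and 79.4% of control. The receptor Grm6, the channel Trpm1, the Go subunit Gnao1, the kinase Prkca, the anchor Gpr179 and the leucine-rich repeat gene Nyx lay between 98.4% and 110.4% of control. In bulk RNA a different number of the cells that make a transcript and a different level per cell cannot be told apart. Those cells are not ON bipolar cells for every member, as given below for Lrit3 and Gnao1. Values are FPKM, the length- and depth-scaled fragment abundance that the authors' Cuffdiff run estimated, summed over a gene's transcripts.

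Size was also expressed as a log2 ratio of triple mutant to control after adding 1 FPKM to both. A ratio of at least 1 either way was called past the size rule, and one of at least 0.5 past a smaller rule. The smaller rule was chosen with earlier results of these data known. Of 10 members, 0 were higher and 0 were lower by the size rule, which 1.84% of the 13280 measured genes passed upward and 0.648% downward. By the smaller rule 1 member was higher (Pcp2, 0.75) and 1 was lower (Lrit3, -0.70), where 5.37% of measured genes were higher and 4.74% lower. The median log2 ratio over the members was 0.05, beside -2.0e-06 over all measured genes. The quartiles over all measured genes were -0.16 and 0.15, and 6 members fell between them. Of the members' 15 transcripts, 0 carried in the authors' deposited table a significance call, which 0.353% of the 19556 transcripts of status OK had, the status of all 15. The lowest q-value of a member there was 0.955, for the main Pcp2 transcript.

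**Figure D1:**
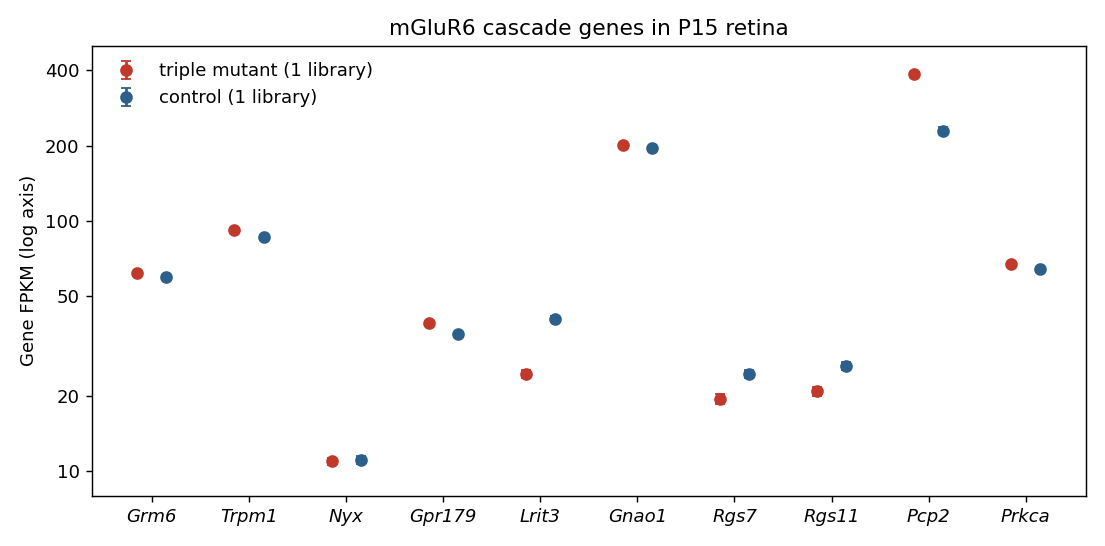
Gene FPKM of the 10 members on a log axis, triple mutant library (red, left of each pair) and control library (blue, right). Bars are 95% counting intervals and often lie within the points; Pcp2 (386 against 229 FPKM) and Lrit3 (24.5 against 40.5 FPKM) are the widest apart.

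From the steps between the lowest FPKM values, each FPKM unit was worth about 56.2 fragments for a kilobase of transcript in the triple mutant library and 48.7 in the control library. The members rested on between 2180 and 33431 fragments per library by this estimate. Bracketed ranges after a percentage or fold are 95% intervals from those fragments. They cover counting error only, so an interval that leaves out 100% says nothing of the spread between animals.

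The receptor and the channel came first. Grm6 (chromosome 11, 50850685 to 50866208, plus strand, GRCm38), which encodes mGluR6, had 61.8 FPKM in the triple mutant library and 59.5 FPKM in the control library, 104% of control (101 to 106). Trpm1 (chromosome 7, 64153835 to 64269775, plus strand), the transduction channel, had 92.4 FPKM in the triple mutant library and 86.5 FPKM in the control library, 107% of control (105 to 109). Both genes were thus slightly higher in the triple mutant library, by log2 ratios of 0.05 and 0.09, and 80.3% and 66.4% of measured genes lay as far from 0 or farther. The ratio of Grm6 to Trpm1 was 0.668 in the triple mutant library and 0.688 in the control library.

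Trpm1 is also transcribed in pigment cells, whose markers were much lower in the triple mutant library. Of 14 listed pigment epithelium and melanocyte markers 10 were measured, 8 of them lower by the size rule (4 at a pseudocount of 5 FPKM) and 0 higher, with summed levels of 8.77 FPKM in the triple mutant library and 138 FPKM in the control library, and none was listed at 0. Ttr, which encodes transthyretin, had 2.49 FPKM in the triple mutant library and 79.1 FPKM in the control library, and Dct, a melanin synthesis gene, had 1.48 FPKM in the triple mutant library and 19.6 FPKM in the control library. The part of pigment cells in the Trpm1 level was not tested. The long transcript NM_001039104 carried 96.6% of Trpm1 in each library, with 89.3 FPKM in the triple mutant and 83.6 FPKM in the control. The short transcript NM_018752, which starts 31624 bases downstream in the GENCODE annotation, had 3.11 FPKM in the triple mutant library and 2.92 FPKM in the control library.

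The proteins that hold receptor and channel in place differed among themselves. Nyx (chromosome X, 13466110 to 13489313, plus strand) encodes nyctalopin, a leucine-rich repeat protein that TRPM1 needs to reach the dendritic tip. It had the lowest level of the 10 members in both libraries, with 10.96 FPKM in the triple mutant and 11.14 FPKM in the control, 98.4% of control (93.4 to 104). Nyx was the member nearest to a ratio of 1, and the only one whose counting interval held 100%.

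Gpr179 (chromosome 11, 97332109 to 97352077, minus strand) encodes an orphan receptor that anchors RGS7 and RGS11 near mGluR6. It had 39.1 FPKM in the triple mutant library and 35.4 FPKM in the control library, 110.4% of control (108 to 113), the second highest ratio among the members.

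Lrit3 (chromosome 3, 129787881 to 129804030, minus strand) encodes a leucine-rich repeat protein required for TRPM1 at the synapse, and in mice it is made in photoreceptors and acts across the cleft. It had 24.5 FPKM in the triple mutant library and 40.5 FPKM in the control library, 60.4% of control (57.7 to 63.2). This was the lowest ratio of the 10 members, and 1.88% of measured genes had a lower one. In the authors' deposited table its transcript had a log2 fold change of -0.73 with a p-value of 0.0422 and a q-value of 0.999. In a second deposited run, which used the revised transcript model NM_001287224, Lrit3 had 26.8 FPKM in the triple mutant library and 42.7 FPKM in the control library, 62.8% of control. Rrh, which encodes peropsin of the pigment epithelium, lies upstream on the same strand and shares no exon with Lrit3. It differed the other way, with 16.4 FPKM in the triple mutant library and 13.0 FPKM in the control library. The measured pigment markers given above were all lower in the triple mutant library, unlike Rrh.

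Lrit3 was lower relative to its partners, which restates its own level because Trpm1 and Nyx differed little between the libraries. The ratio of Lrit3 to Trpm1 was 0.265 in the triple mutant library and 0.468 in the control library, and that of Lrit3 to Nyx was 2.23 in the triple mutant library and 3.64 in the control library. Its relatives Lrit1, which encodes a photoreceptor protein of the same kind, and Lrit2 had ratios nearer 1. Lrit1 had 119.8 FPKM in the triple mutant library and 118 FPKM in the control library, and Lrit2 had 60.2 FPKM in the triple mutant library and 67.5 FPKM in the control library. Photoreceptor markers were read beside these values. All 9 measured cone markers were lower by at least 0.5 on the log2 scale, 4 of them by the size rule (2 at a pseudocount of 5 FPKM and 2 in the second deposited table), with summed levels of 443 FPKM in the triple mutant library and 968 FPKM in the control library. The 9 measured rod markers summed to 12057 FPKM in the triple mutant library and 13452 FPKM in the control library, with 0 past the size rule and 2 higher by the smaller rule. None of these markers was listed at 0, and their part in the Lrit3 level was not tested.

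**Figure D2:**
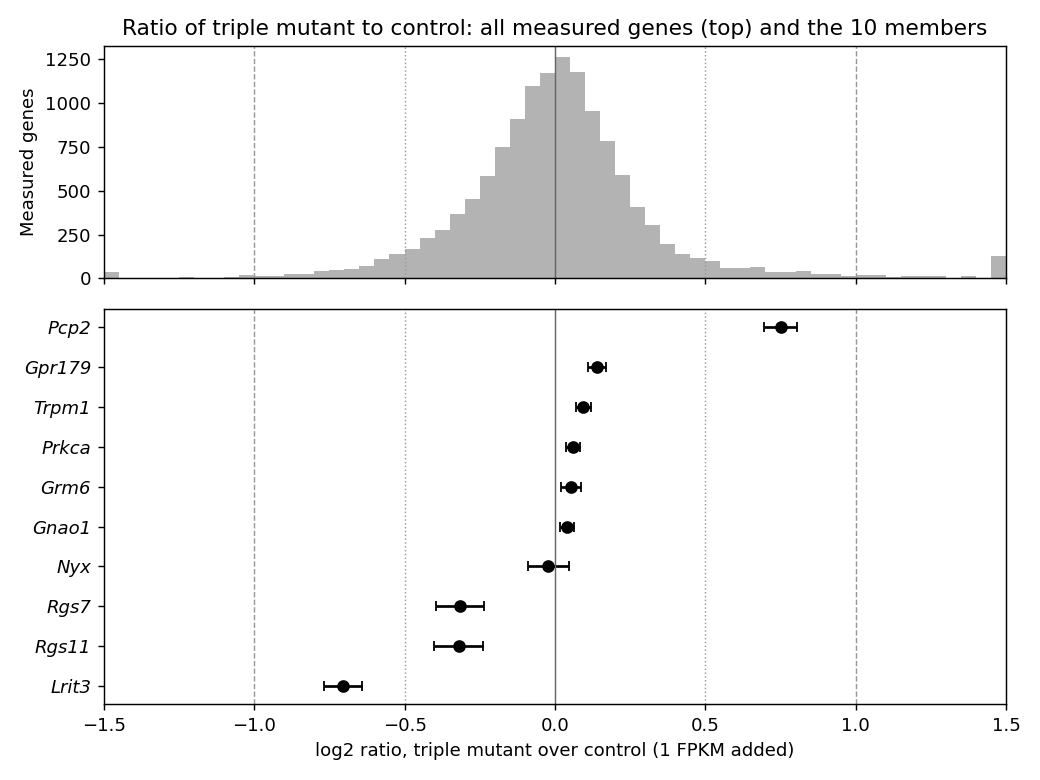
Top, histogram of log2 ratios (triple mutant over control, 1 FPKM added) of the 13280 measured genes, with values beyond the axis gathered in the end bars. Bottom, the 10 members in order of their ratio with 95% counting intervals; dotted lines mark 0.5 and dashed lines 1 either way, and only Pcp2 (0.75) and Lrit3 (-0.70) lie beyond the dotted lines.

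Gnao1 (chromosome 8, 93809966 to 93969388, plus strand) encodes the alpha subunit of Go, which is also used widely in the brain and inner retina. It had 200.4 FPKM in the triple mutant library and 195 FPKM in the control library, 103% of control (101 to 104). Its main transcript NM_010308 had 187 FPKM in the triple mutant library and 186 FPKM in the control library. The minor transcript NM_001113384 had 13.3 FPKM in the triple mutant library and 9.37 FPKM in the control library, a share of 6.63% in the triple mutant and 4.81% in the control.

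Rgs7 and Rgs11 encode the GTPase-activating proteins that switch Go off in ON bipolar cells. Rgs7 (chromosome 1, 175059087 to 175492500, on the minus strand) measured 19.5 FPKM in the triple mutant library and 24.5 FPKM in the control library, 79.5% of control (75.02 to 84.29). Rgs11 (chromosome 17, 26202951 to 26211324, plus strand) had 20.9 FPKM in the triple mutant library and 26.3 FPKM in the control library, 79.4% of control (74.8 to 84.1). Both were lower by about the same amount, with log2 ratios of -0.32 each, and 21.9% and 21.6% of measured genes lay as far from 0 or farther. The ratio of Rgs7 to Rgs11 was 0.931 in the triple mutant library and 0.929 in the control library, and their counting intervals overlapped in each.

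The Rgs7 difference was carried by its main transcript. NM_011880 had 15.5 FPKM in the triple mutant library and 21.2 FPKM in the control library, while NM_001199003 had 3.98 FPKM in the triple mutant library and 3.32 FPKM in the control library. The share of NM_001199003 was thus 20.5% in the triple mutant library and 13.6% in the control library, the largest shift in transcript share among the members, at 6.91 points. The split between transcripts is Cuffdiff's estimate. Exons of Rgs11 overlap those of Arhgdig on the opposite strand, which had 15.3 FPKM in the triple mutant library and 14.7 FPKM in the control library. No source used here says whether counting kept strand, so fragments from the stretches this pair shares may not have been told apart. The same holds for the overlaps of Pcp2 with Pet100 and of Prkca with Apoh, given below.

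Pcp2 (chromosome 8, 3623371 to 3625545, minus strand), also known as L7, encodes a GoLoco protein that binds Go alpha and is made in bipolar cells and cerebellar Purkinje cells. It had 386 FPKM in the triple mutant library and 229 FPKM in the control library, 1.68-fold higher (1.62 to 1.75). Pcp2 had the highest level and the highest ratio of the 10 members, and 2.91% of measured genes had a higher ratio. In the authors' deposited table its main transcript had a log2 fold change of 0.75 with a p-value of 0.0273, beside the q-value of 0.955 given above.

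The main transcript NM_001129803 carried 99.2% of Pcp2 in the triple mutant library and 99.6% in the control library, with 383 FPKM in the triple mutant and 228 FPKM in the control. NM_001129804 had 2.69 FPKM in the triple mutant library and 0.816 FPKM in the control library, which rested on about 48.3 fragments in the triple mutant and 12.7 in the control. At 504 bases the main transcript is short, and FPKM of short transcripts depends on the fragment length assumed. Exons of Pcp2 overlap those of Pet100, a mitochondrial assembly factor gene on the opposite strand, and the deposited table places both at 1 locus. Pet100 had 15.2 FPKM in the triple mutant library and 16.8 FPKM in the control library. Because of Pcp2 the summed level of the 10 members was higher, at 923 FPKM in the triple mutant library and 772 FPKM in the control library. Without Pcp2 the other 9 summed to 537 FPKM in the triple mutant library and 543 FPKM in the control library.

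Prkca (chromosome 11, 107933387 to 108343928, minus strand) encodes protein kinase C alpha, the usual marker of rod bipolar cells, which shapes their light response. It had 67.1 FPKM in the triple mutant library and 64.3 FPKM in the control library, 104% of control (103 to 106). Exons of Apoh on the opposite strand overlap it, at 0.553 FPKM in the triple mutant library and 0.141 FPKM in the control library.

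**Figure D3:**
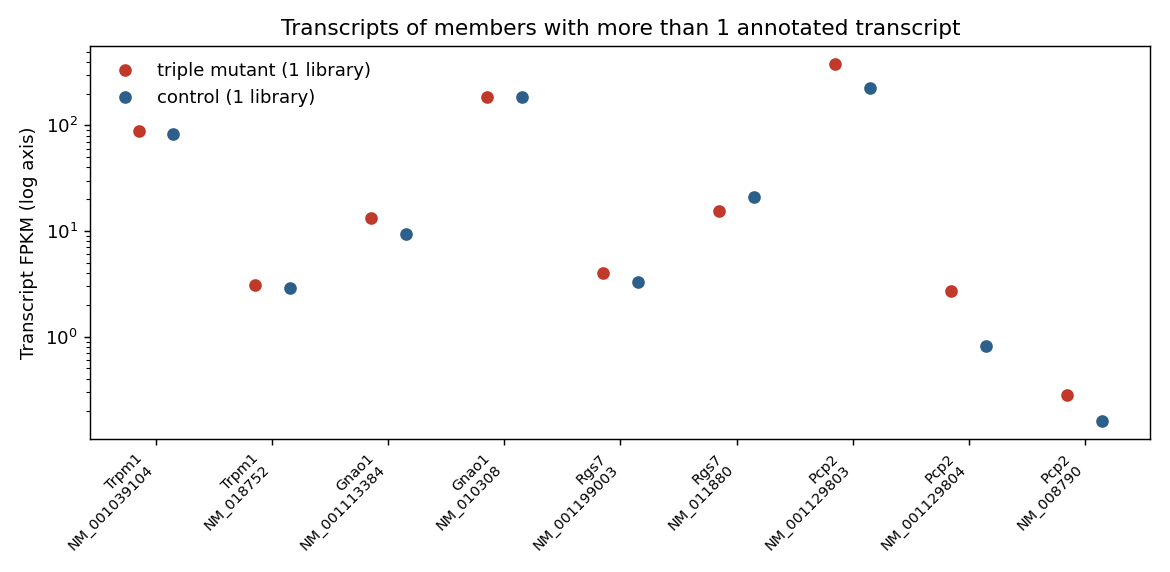
FPKM on a log axis for the 9 transcripts of the 4 members with more than 1 annotated transcript, triple mutant library (red, left of each pair) and control library (blue, right). The 2 Rgs7 transcripts differ in opposite directions, and the 3 Pcp2 transcripts are all higher in the triple mutant library.

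The order of levels was nearly the same in both libraries. In the triple mutant library it ran Pcp2, Gnao1, Trpm1, Prkca, Grm6, Gpr179, Lrit3, Rgs11, Rgs7 and Nyx. In the control library Lrit3 stood above Gpr179, at 40.5 and 35.4 FPKM, and the other places were the same. Rgs11 and Rgs7 were the only neighbours in either order whose counting intervals overlapped. In the control library every member but Nyx lay above 73.2% or more of measured genes, and Nyx above 47.6%.

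The other genes of the cascade were counted from a list of partners, anchors and Go modulators, of which 12 of 13 were measured. By the size rule 0 were higher and 1 was lower, and by the smaller rule 1 was higher and 3 lower. The 1 lower call, Gpsm2, was lost (0 lower) at a pseudocount of 5 FPKM and in the second deposited table. Their median log2 ratio was -0.15. Gnb3, which encodes the G protein beta subunit of both ON bipolar cells and cones, had 347 FPKM in the triple mutant library and 218 FPKM in the control library, a log2 ratio of 0.66. Its gamma partner Gng13 had 158 FPKM in the triple mutant library and 166 FPKM in the control library.

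The lower genes of that list included anchors of the R7 regulators to which Rgs7 and Rgs11 belong. Rgs7bp, which encodes their membrane anchor, had 7.32 FPKM in the triple mutant library and 13.8 FPKM in the control library, a log2 ratio of -0.83. Rgs9bp, which encodes the anchor of RGS9 in photoreceptors and of RGS11 in ON bipolar cells, had 84.6 FPKM in the triple mutant library and 131 FPKM in the control library, a log2 ratio of -0.62. Gnb5, whose product is the obligate partner of the R7 regulators, had 286 FPKM in the triple mutant library and 319 FPKM in the control library, a log2 ratio of -0.16. Gpsm2, which encodes a GoLoco protein of the spindle orientation complex, had the lowest ratio of the list (-1.05), with 21.7 FPKM in the triple mutant library and 45.8 FPKM in the control library.

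Close relatives of the members were compared with them. Of the R7 family, Rgs6 had 8.97 FPKM in the triple mutant library and 14.9 FPKM in the control library, and the photoreceptor gene Rgs9 had 252 FPKM in the triple mutant library and 264 FPKM in the control library. Among 10 G protein alpha subunits 1 was lower by the size rule, the cone transducin gene Gnat2 (35.2 FPKM in the triple mutant library and 72.1 FPKM in the control library), and Gnai2, which encodes an inhibitory subunit, had 187 FPKM in the triple mutant library and 123 FPKM in the control library. The median over these subunits was -0.18, and the Gnat2 call was lost (0 lower) at a pseudocount of 5 FPKM and in the second deposited table. The 7 other metabotropic glutamate receptors had a median of -0.29 and 0 past the size rule, with Grm8 at 5.86 FPKM in the triple mutant library and 9.56 FPKM in the control library, and Grm6 had the highest level of the 8 in both libraries. Grm7 and Grm5 had log2 ratios of 0.04 and 0.03, within the counting interval of Grm6 (0.02 to 0.09). The lists of other protein kinase C genes (7 measured, median -0.05), TRPM channels (4 measured, -0.05) and relatives of Gpr179 (3 measured, -0.28) also had 0 past the size rule. By the smaller rule 1 G protein alpha subunit was higher and 2 were lower. In the other lists of relatives 0 were higher by that rule. Lower by it were 2 metabotropic receptors, 1 of 2 R7 genes, 1 protein kinase C gene, 1 relative of Gpr179 and 0 TRPM channels. Gpr158, the nearest relative of Gpr179, had 7.78 FPKM in the triple mutant library and 13.9 FPKM in the control library.

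Other bipolar genes differed as little as most of the members. Of 15 bipolar transcription factors 0 passed either rule, 11 lay above 0 and 4 below, and the median log2 ratio was 0.09. By the smaller rule 1 of them was higher in the second deposited table. Neurod4, a bHLH factor, had 100.4 FPKM in the triple mutant library and 77.9 FPKM in the control library. Of 19 ON and rod bipolar markers 0 passed the size rule, 1 was higher and 1 lower by the smaller rule, and the median was -0.06. Those were Gnb3, given above, and the neuropeptide gene Cck, with 8.96 FPKM in the triple mutant library and 13.9 FPKM in the control library. Of 13 measured OFF bipolar markers 0 passed the size rule, 1 was lower by the smaller rule, and the median was -0.19. That gene was Pcdh10, with 17.2 FPKM in the triple mutant library and 30.1 FPKM in the control library. These lists share genes with each other.

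**Figure D4:**
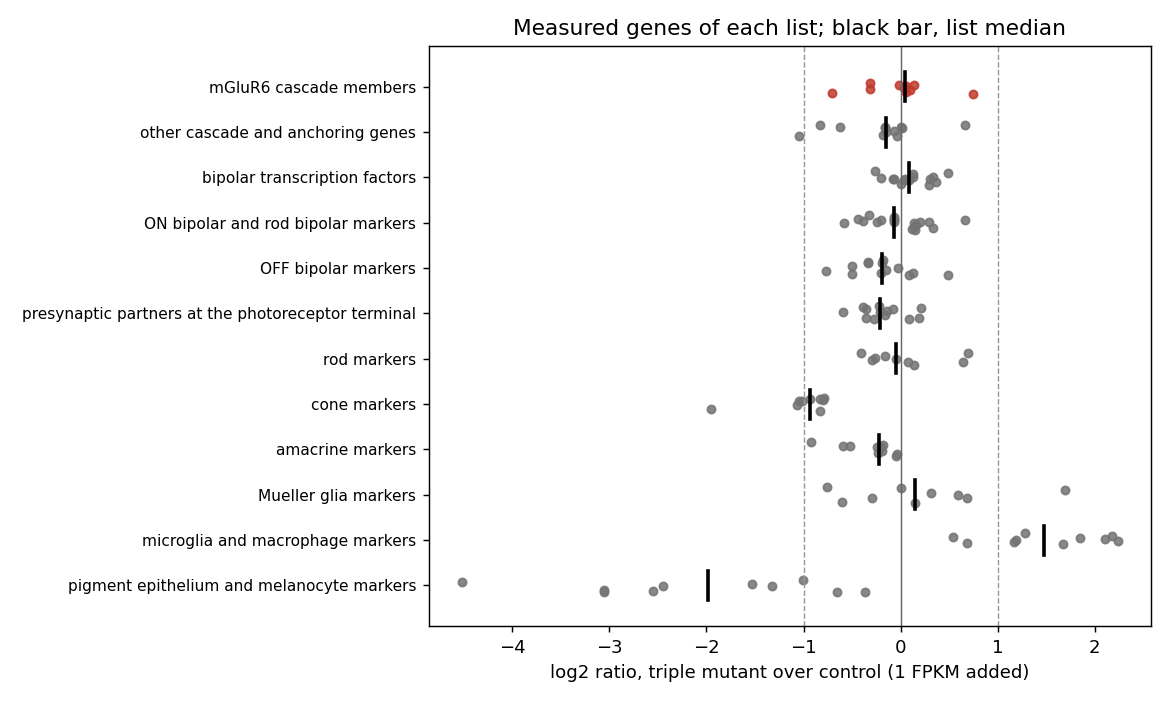
Log2 ratios (triple mutant over control, 1 FPKM added) of the measured genes of 12 lists, 1 point a gene, with the 10 members in red, black bars at list medians and dashed lines at 1 either way. The members and the bipolar lists have medians between -0.19 and 0.09. Rod (-0.04), other cascade (-0.15), Mueller glia (0.15), photoreceptor terminal (-0.22) and amacrine (-0.22) lists also have medians near 0. Cone (-0.93), pigment (-1.99) and microglia markers (1.48) lie farther from 0.

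On the photoreceptor side of the synapse, 13 genes of the terminal had 0 past the size rule, 1 lower by the smaller rule and a median of -0.22. Bsn, which encodes the active zone protein bassoon, had 12.1 FPKM in the triple mutant library and 18.8 FPKM in the control library. Elfn1, whose product binds mGluR6 across the cleft, had 40.0 FPKM in the triple mutant library and 44.7 FPKM in the control library. Dag1 and Egflam, which encode dystroglycan and its ligand pikachurin, had the highest ratios of that list. Dag1 had 35.4 FPKM in the triple mutant library and 30.5 FPKM in the control library, and Egflam had 77.0 FPKM in the triple mutant library and 67.6 FPKM in the control library.

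The targeted genes and the other cell type lists give the setting of these values. Dnmt1 had 11.6 FPKM in the triple mutant library and 21.7 FPKM in the control library, Dnmt3a had 56.0 FPKM in the triple mutant and 87.4 FPKM in the control, and Dnmt3b had 0.827 FPKM in the triple mutant and 1.03 FPKM in the control. Amacrine cells also use Gnao1. Of 10 amacrine markers 0 were past the size rule, 3 were lower by the smaller rule and all 10 lay below 0. Their median was -0.22, with summed levels of 668 FPKM in the triple mutant library and 879 FPKM in the control library. Their part in the Gnao1 level was not tested. The median was 0.15 for 9 Mueller glia markers, with 1 higher by the size rule and 3 higher and 2 lower by the smaller rule. For 6 horizontal cell markers it was -0.37, with 1 lower by the size rule and 2 by the smaller rule. For 10 ganglion cell markers it was -0.58, with 0 past the size rule and 9 lower by the smaller rule. By the size rule 8 of 10 microglia markers were higher (median 1.48) and 6 of 6 measured lens markers lower (median -4.38).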

How the data were processed

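Total RNA from dissected retinas was sequenced in 1 triple mutant and 1 control library. The submitters' processing notes list TopHat2 2.0.8, Cuffdiff 2.1.1 and the build mm10. No source used here gives the annotation or the use of strand. The authors deposited FPKM per RefSeq transcript in 2 tables, and for every transcript a q-value, a p-value and the log2 fold change, per the file headers. Gene FPKM was the sum over transcripts in the table with symbols, for 15318 genes with at least 1 transcript of status OK and none failed. A gene was measured where it had at least 1 FPKM in either library (13280 genes). The planned rule of size was applied, with no test. The smaller rule, the members and the lists were chosen with earlier results of these data known. All members were named, with the 2 highest and 2 lowest genes of each other list eligible and some cascade genes in any case; the second-table values, Rrh, Pet100, Arhgdig, Apoh, Elfn1, Lrit2 and the per-transcript values lie outside that rule or were added after the values were seen.

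Depth was read from steps between FPKM values of long single-transcript genes: 162 of 226 low values (71.7%) in the triple mutant and 173 of 228 (75.9%) in the control were whole multiples within 10% of a step, with a fragment length of 150 bases, which gave the highest shares among the lengths tried. Intervals are exact (Clopper-Pearson for ratios) and cover counting error only; PCR copies are not separated. Transcript lengths are from GENCODE M21, and that of the paired model was used for Lrit3. The size rule was run on simulated fragments with known changes and no spread between animals, so it was not tested against such spread. The step search was run on simulated fragments with known steps. Python 3.11.15, numpy 2.4.6, scipy 1.17.1 and pandas 2.3.3 were used.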

Additional observations from a re-analysis of the deposited data

How the results depend on the processing

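No paired analysis was possible because each genotype has 1 library, and for the same reason no replicate could be left out. The counts of members past both size rules were the same at pseudocounts of 0.1 and 5 FPKM, with low genes kept, with genes of at least 5 FPKM alone, in the second table, after centring on the median gene, after rescaling to equal totals, with the main transcript alone and with OK transcripts alone. The members' median log2 ratio was 0.11 in the second table, whose median over all measured genes was also higher (0.05). Of 90 alternative values of member ratios, 81 lay within the counting interval of the value reported and 9 outside it. Most of those outside came from the second table, for Grm6, Trpm1, Gpr179, Lrit3, Gnao1, Pcp2 and Prkca. For these members the choice of table thus moved the ratio by more than the counting interval covers. Pcp2 ranged from 0.74 to 0.81, Lrit3 from -0.72 to -0.63, Rgs7 from -0.43 to -0.26 and Rgs11 from -0.33 to -0.26. Grm6 ranged from 0.05 to 0.11, Trpm1 from 0.09 to 0.15, Gpr179 from 0.13 to 0.20, Prkca from 0.06 to 0.12 and Gnao1 from 0.01 to 0.10, each highest in the second table. Nyx ranged from -0.02 to 0.03 and had no stable sign. Of 945 alternative list values 44 moved and 0 reversed. Over all measured genes the size rule called 245 higher and 86 lower, against 390 and 180 at a pseudocount of 0.1 and 92 and 33 at 5. The smaller rule called 713 higher and 630 lower, against 941 and 952 at a pseudocount of 0.1, 325 and 220 at 5, and 821 and 495 in the second table. Genes of at least 5 FPKM gave 156 higher and 56 lower by the size rule and 428 and 415 by the smaller rule. At a pseudocount of 5 FPKM the smaller-rule calls of Bsn and Cck were lost (0 lower in each list), 5 of 10 ganglion cell markers were lower by the smaller rule, and by the size rule 4 of 10 microglia markers were higher and 0 of 6 horizontal cell markers lower. OFF bipolar markers had 4 lower by the smaller rule at a pseudocount of 0.1, and 1 lower by the size rule with the main transcript alone. Depth limits the minor transcripts, such as NM_008790 of Pcp2, at about 5.46 fragments in the triple mutant library and 2.69 in the control library.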
